A study of Mus musculus with 11 samples.

Results

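Interferon-stimulated genes are switched on in cells that receive an interferon signal, and 39 of them were followed across sorted cells of the mouse adrenal gland. The 39 genes were given by name and matched by symbol through the authors' comparison tables to the identifiers of the count table, which holds 49671 genes. All 39 were found, and all 39 were among the 20893 genes with enough counts to be tested. The rule is a list of names and uses no measured value, although the list was drawn up with earlier results of these data known. Cells came from 6 male Nestin-GFP mice, whose reporter puts green fluorescent protein (GFP) under regulatory sequence of Nestin, a filament protein often taken to mark progenitors. Cortex and medulla were dissected apart, pooled in 3 groups of 2 mice, digested with collagenase and sorted by GFP, and 11 libraries were sequenced. The groups were cortical GFP-positive cells (n = 3), cortical GFP-negative cells (n = 3), medullary GFP-positive cells (n = 3) and medullary GFP-negative cells (n = 2). Each mouse carried the reporter, so GFP-negative cells are reporter-bearing cells in which no GFP was seen, and the labels name no treatment or infection. Mice of libraries 1 and 2 of both cortical groups, of medullary GFP-positive library 1 and of both medullary GFP-negative libraries were about 3.5 months old. Those of library 3 of both cortical groups and of medullary GFP-positive libraries 2 and 3 were about 2.5 months old.

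Interferons are secreted proteins that warn cells of infection. Type I interferons bind the receptor made of Ifnar1 and Ifnar2, whose kinases Jak1 and Tyk2 pass the signal on. Stat2 and Irf9 are part of a complex that binds a DNA element called the interferon-stimulated response element (ISRE). Interferon gamma binds Ifngr1 and Ifngr2 and acts through the gamma-activated site (GAS). Many of the induced genes also keep a low level without infection, in immune cells such as macrophages and in other cells.

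Promoters of 29 of the 39 genes stood in the RefSeq table used (build GRCm38.p6), as windows of 250 bases before to 50 bases after the start of the gene as RefSeq places it. Those of Dhx58, Ifi27, Iigp1, Ly6e, Mx1, Mx2, Oas2, Parp14, Usp18 and Zbp1 did not. On either strand, the ISRE-like letters GAAANNGAA were found in 18 of the 29 genes (62.1%), against 9.76% of all 27025 genes with a window. The GAS-like letters TTCNNNGAA were found in 9 of the 29 genes (31.0%), against 9.55% of all genes. A match is a description of the letters, not a sign of binding. The 250 bases before the start are printed for 6 genes on which the results below turn, 5′ to 3′ on the strand of the gene, with matches to GAAANNGAA or its reverse complement TTCNNTTTC in capitals, except for Irf1, where capitals mark TTCNNNGAA.
Ifit1 (chr19:34640639-34640888, plus strand): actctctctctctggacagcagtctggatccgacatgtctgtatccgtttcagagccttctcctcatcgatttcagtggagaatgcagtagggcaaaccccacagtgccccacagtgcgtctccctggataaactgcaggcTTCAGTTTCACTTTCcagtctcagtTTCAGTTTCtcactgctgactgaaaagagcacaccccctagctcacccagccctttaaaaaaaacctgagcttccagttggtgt
Bst2 (chr8:71537473-71537722, minus strand): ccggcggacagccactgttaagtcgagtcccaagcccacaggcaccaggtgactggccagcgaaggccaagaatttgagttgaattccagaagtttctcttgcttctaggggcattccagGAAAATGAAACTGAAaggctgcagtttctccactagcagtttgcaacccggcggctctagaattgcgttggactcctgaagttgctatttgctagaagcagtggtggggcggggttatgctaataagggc
Trim30d (chr7:104507850-104508099, minus strand): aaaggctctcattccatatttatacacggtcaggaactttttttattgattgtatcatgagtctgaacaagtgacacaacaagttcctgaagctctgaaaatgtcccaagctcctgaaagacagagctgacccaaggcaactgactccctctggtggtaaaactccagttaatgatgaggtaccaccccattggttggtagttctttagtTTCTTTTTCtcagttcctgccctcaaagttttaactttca
Oas1a (chr5:120907526-120907775, minus strand): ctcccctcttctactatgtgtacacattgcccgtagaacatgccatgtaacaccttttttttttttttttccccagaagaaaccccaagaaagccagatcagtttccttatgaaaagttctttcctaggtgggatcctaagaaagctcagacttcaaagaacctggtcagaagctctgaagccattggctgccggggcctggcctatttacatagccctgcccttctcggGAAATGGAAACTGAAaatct
Isg15 (chr4:156200819-156201068, minus strand): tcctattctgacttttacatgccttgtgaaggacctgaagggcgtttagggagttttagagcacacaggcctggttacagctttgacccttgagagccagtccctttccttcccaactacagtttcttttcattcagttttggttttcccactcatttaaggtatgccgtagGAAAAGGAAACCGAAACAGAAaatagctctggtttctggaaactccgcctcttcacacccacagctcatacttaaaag
Irf1 (chr11:53769764-53770013, plus strand): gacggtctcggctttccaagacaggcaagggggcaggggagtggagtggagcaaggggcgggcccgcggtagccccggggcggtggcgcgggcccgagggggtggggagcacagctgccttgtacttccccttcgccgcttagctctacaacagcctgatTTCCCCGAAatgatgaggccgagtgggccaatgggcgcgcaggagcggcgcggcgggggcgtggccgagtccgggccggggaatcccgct

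The 6 windows were chosen after the values were seen. Bst2, Trim30d and Irf1 were called in 4 of the 5 comparisons, counting the test of the difference between tissues, and Oas1a and Ifit1 in 3. Psmb8, with a GAS-like match, was called in 4 and Gbp3 and Ddx58, with ISRE-like matches, in 3, and their windows are not printed. Psmb9 and Oasl2, called in 4, and Irf7 and Irf9, called in 3, had no match of either kind and are not printed either. Ifit1 held 3 ISRE-like matches, the first bases of which lay 109, 103 and 84 bases before the start, and the first pair overlapped. In Bst2 the 2 matches lay 130 and 124 bases before the start, in Oas1a 20 and 14 bases before it, and both pairs overlapped. Trim30d held 1 match, 40 bases before the start. Isg15 held 3 overlapping matches, 78, 72 and 66 bases before the start, and it was the gene of the list called in none of the 4 comparisons between groups. Irf1 had no ISRE-like and 1 GAS-like match, 90 bases before the start. A GAS-like match of Bst2, 136 bases before the start, overlapped its first ISRE-like match, and Oas1a held a GAS-like match 98 bases before the start, apart from the others.

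Total counts lay between 18500690 and 29204212 per library, and 3 counts, the floor of detection used here, corresponded to 0.103 to 0.162 CPM (counts scaled to a common library size, with TMM factors). Nes, the gene of Nestin itself and not the reporter, had 50.8, 35.2 and 47.4 CPM in cortical GFP-positive, 4.59, 7.16 and 7.44 CPM in cortical GFP-negative, 78.6, 178 and 69.2 CPM in medullary GFP-positive and 16.1 and 26.1 CPM in medullary GFP-negative libraries. Markers of other cell types were present in each sorted pool. The summed level of 14 macrophage markers was 198, 318 and 63.3 CPM in cortical GFP-positive, 3807, 4060.1 and 5606 CPM in cortical GFP-negative, 1323, 1109 and 464 CPM in medullary GFP-positive and 22125 and 21159.9 CPM in medullary GFP-negative libraries, with no marker at 0 in all libraries of a group. Markers of chromaffin cells, the catecholamine-making cells of the medulla, summed to 0.44 to 102 CPM in the cortical libraries and 5015 to 9301 CPM in the medullary libraries. Those of steroid cells summed to 34558 to 65463 CPM in the cortical libraries and still to 8204 to 35716 CPM in the medullary libraries. Erythroid markers reached 811 CPM in cortical GFP-positive library 1 and at most 1.86 CPM elsewhere. In such pools, fewer cells of a type and less RNA per cell cannot be told apart.

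**Figure D1:**
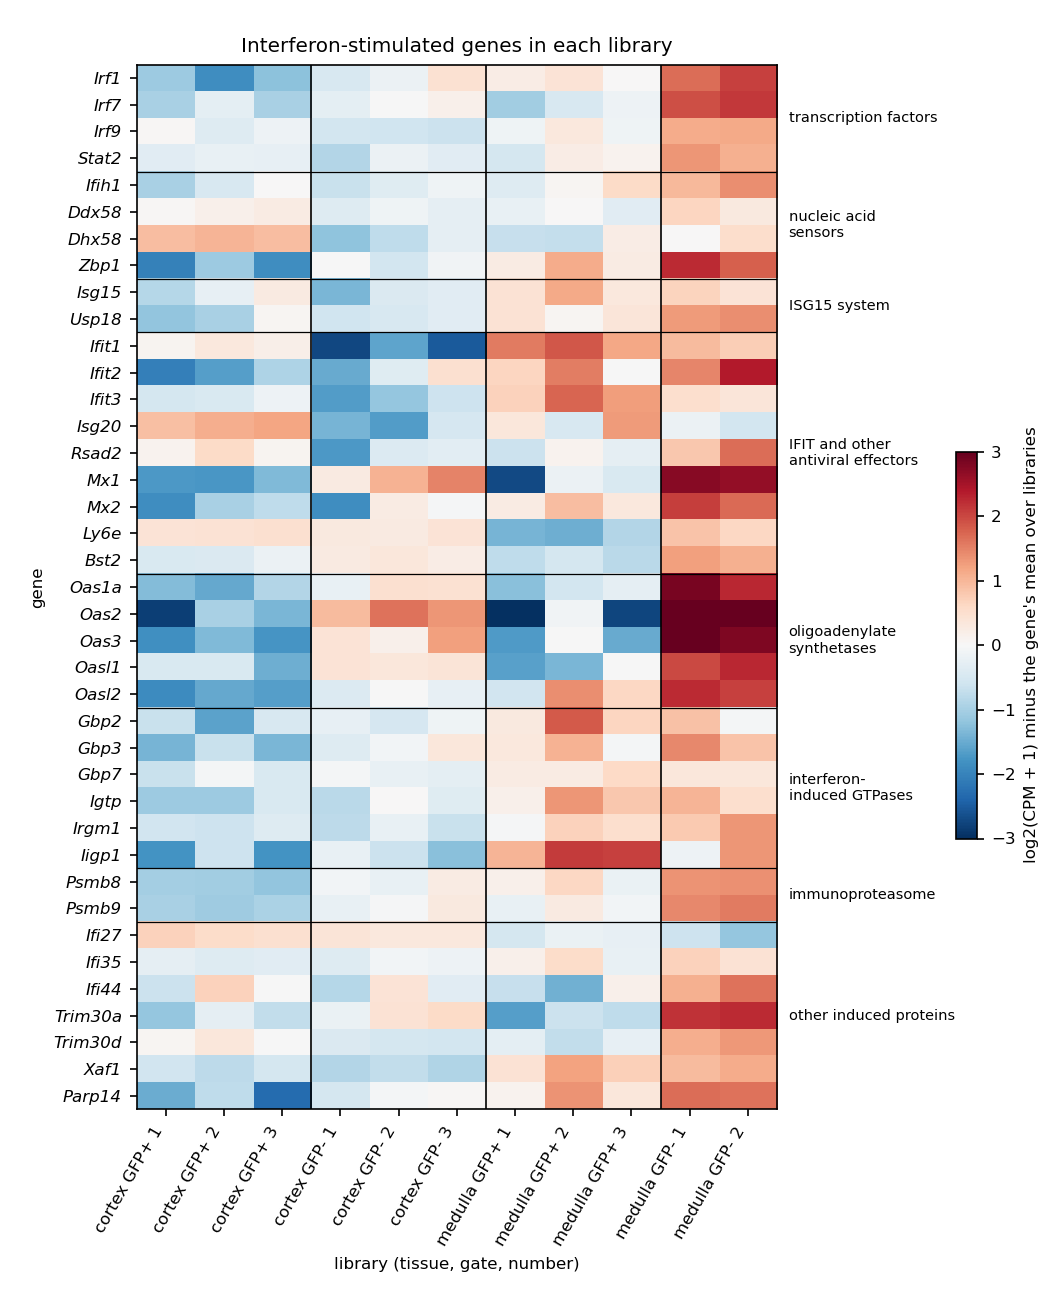
Levels of the 39 interferon-stimulated genes in each of the 11 libraries, as log2(CPM + 1) minus the mean of the gene over all libraries (colour bar, red above and blue below that mean), with genes down the page by role and libraries across by group. The medullary GFP-negative libraries on the right are above the mean for most genes, and Dhx58, Isg20 and Ifi27 are above it in the cortical GFP-positive libraries on the left.

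Most of the 39 genes were highest in medullary GFP-negative cells. The group with the highest mean level was medullary GFP-negative for 29 of the 39 genes (74.4%, against 27.4% of all genes tested), medullary GFP-positive for 7, cortical GFP-positive for 3 and cortical GFP-negative for none. The group with the lowest mean was cortical GFP-positive for 21 genes (53.8%, against 23.4% of all genes tested) and cortical GFP-negative for 12 (30.8%, against 25.8%). Between cortical GFP-positive and GFP-negative cells, 4 of the 39 genes rose, against 7.14% of all genes tested, and 10 fell, against 7.59% (edgeR, adjusted p under 0.05). Between medullary GFP-positive and GFP-negative cells, 1 rose, against 10.2%, and 21 fell, against 11.1%. In GFP-positive cells, 3 genes were higher in cortex than in medulla, against 6.04%, and 16 were lower, against 9.45%. In GFP-negative cells, 1 was higher in cortex, against 8.06%, and 25 were lower, against 10.6%. The gate difference itself differed between the tissues for 7 genes, each with the higher value in the cortex, against 0.857%, and for none in the other direction, against 0.756% (1 gene at an unadjusted p under 0.05). The median log2 change of the 39 genes was -0.52 in the cortex and -1.13 in the medulla for GFP-positive over GFP-negative cells, beside 0.029 and 0.088 over all genes tested. For cortex over medulla it was -0.93 in GFP-positive and -1.74 in GFP-negative cells, beside -0.029 and -0.019 over all genes tested. Each group enters 2 of the 4 comparisons between groups, so these share libraries. Changes are given below as folds and on the log2 scale. Their standard error (SE) is approximate, worked back from the change and its F value in the edgeR fit.

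Among the 4 transcription factors, Irf1 fell in GFP-positive cells of both tissues, and Irf7, Irf9 and Stat2 fell in the medulla alone among the gate comparisons. Irf1 (ENSMUSG00000018899, chromosome 11, 53770014 to 53778374, mm10), a factor induced strongly by interferon gamma, had 26.3, 14.9 and 23.8 CPM in cortical GFP-positive, 40.8, 50.1 and 78.7 CPM in cortical GFP-negative, 66.3, 76.3 and 57.9 CPM in medullary GFP-positive and 183 and 241 CPM in medullary GFP-negative libraries. The gates did not overlap in either tissue. It was 2.61-fold lower (log2 change -1.38, SE 0.279, edgeR adjusted p = 0.00866) in cortical GFP-positive than in cortical GFP-negative cells, and in the medulla 3.17-fold lower (log2 change -1.67, SE 0.3, edgeR adjusted p = 0.00333) in GFP-positive cells. Irf7, which drives further type I interferon production, had 17.5, 28.6 and 17.6 CPM in cortical GFP-positive, 28.8, 35 and 39 CPM in cortical GFP-negative, 16.6, 24.9 and 31.4 CPM in medullary GFP-positive and 138 and 157 CPM in medullary GFP-negative libraries. Medullary GFP-negative libraries stood far above all others. Irf7 was 6.08-fold lower (log2 change -2.60, SE 0.292, edgeR adjusted p = 0.000258) in medullary GFP-positive than in medullary GFP-negative cells. In the cortex the same comparison gave a log2 change of -0.69 (edgeR adjusted p = 0.108), with no overlap of the libraries. Irf9, the DNA-binding part of the ISRE-binding complex, had 70.6, 53 and 62.6 CPM in cortical GFP-positive, 46.7, 45.6 and 44.2 CPM in cortical GFP-negative, 63.2, 86.8 and 63 CPM in medullary GFP-positive and 151 and 154 CPM in medullary GFP-negative libraries. It was 2.14-fold lower (log2 change -1.10, SE 0.173, edgeR adjusted p = 0.0016) in GFP-positive cells of the medulla, while the cortical libraries lay the other way round without a call, at a log2 change of 0.45 (edgeR adjusted p = 0.0855). Stat2, the partner of Irf9, had 26.5, 28.6 and 28.4 CPM in cortical GFP-positive, 17.8, 29.7 and 26.7 CPM in cortical GFP-negative, 23.3, 39.6 and 36.2 CPM in medullary GFP-positive and 86.7 and 72.4 CPM in medullary GFP-negative libraries. Its cortical gates overlapped, and in the medulla it was 2.41-fold lower (log2 change -1.27, SE 0.257, edgeR adjusted p = 0.00618) in GFP-positive cells. Summed over the 4 factors, the level was 141, 125 and 132 CPM in cortical GFP-positive, 134, 160.5 and 189 CPM in cortical GFP-negative, 169, 228 and 188 CPM in medullary GFP-positive and 558 and 625 CPM in medullary GFP-negative libraries.

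The sensors of foreign nucleic acid did not move together. Dhx58 (ENSMUSG00000017830, chromosome 11, 100694884 to 100704271, mm10), which encodes the RNA helicase LGP2, had 65.9, 70.2 and 66 CPM in cortical GFP-positive, 14.1, 19.7 and 28.2 CPM in cortical GFP-negative, 20.7, 20.2 and 40 CPM in medullary GFP-positive and 34.5 and 49.2 CPM in medullary GFP-negative libraries. Cortical GFP-positive libraries were above all others and nearly equal to each other. Dhx58 was 3.26-fold higher (log2 change 1.70, SE 0.319, edgeR adjusted p = 0.00598) in cortical GFP-positive than in cortical GFP-negative cells and 2.5-fold higher (log2 change 1.32, SE 0.315, edgeR adjusted p = 0.0191) in cortical than in medullary GFP-positive cells. Its medullary gates overlapped. The related helicases Ddx58 (RIG-I) and Ifih1 (MDA5) start the signalling that LGP2 modulates. Ddx58 had 54.9, 59.4 and 63.2 CPM in cortical GFP-positive, 40.5, 49.1 and 44 CPM in cortical GFP-negative, 45.5, 54.3 and 42.1 CPM in medullary GFP-positive and 83.9 and 65.7 CPM in medullary GFP-negative libraries, and was 1.58-fold lower (log2 change -0.66, SE 0.167, edgeR adjusted p = 0.0187) in medullary GFP-positive than in medullary GFP-negative cells. In the cortex its libraries did not overlap either, with the GFP-positive ones higher and no call, at a log2 change of 0.41 (edgeR adjusted p = 0.1). Ifih1 had 12.9, 18.5 and 26.7 CPM in cortical GFP-positive, 16.2, 20.1 and 24 CPM in cortical GFP-negative, 19.9, 27.2 and 39.7 CPM in medullary GFP-positive and 52.5 and 70.7 CPM in medullary GFP-negative libraries. Its cortical gates overlapped, and in the medulla it was 2.13-fold lower (log2 change -1.09, SE 0.345, edgeR adjusted p = 0.0475) in GFP-positive cells, close to the threshold. Zbp1, a sensor of left-handed nucleic acid that can start cell death, went the opposite way from Dhx58, with 0.489, 1.85 and 0.675 CPM in cortical GFP-positive, 5.04, 3.16 and 4.68 CPM in cortical GFP-negative, 6.19, 12.1 and 6.16 CPM in medullary GFP-positive and 27.5 and 20.1 CPM in medullary GFP-negative libraries. It was 4.25-fold lower (log2 change -2.09, SE 0.507, edgeR adjusted p = 0.0211) in cortical GFP-positive than in cortical GFP-negative cells and 8.07-fold lower (log2 change -3.01, SE 0.519, edgeR adjusted p = 0.00425) in cortical than in medullary GFP-positive cells, and missed the threshold in the medullary gates (adjusted p = 0.0573).

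The ISG15 system consists of a small protein attached to others and the protease that removes it. Isg15, the protein tag, was low, with 0.489, 1.29 and 2.25 CPM in cortical GFP-positive, 0.0373, 0.991 and 1.14 CPM in cortical GFP-negative, 2.63, 4.9 and 2.35 CPM in medullary GFP-positive and 3.29 and 2.6 CPM in medullary GFP-negative libraries, and it was called in no comparison. Between cortical and medullary GFP-negative cells its log2 change was -2.02 (edgeR adjusted p = 0.178), without overlap of the libraries. Usp18, the protease, which also damps the type I receptor, had 7.38, 8.63 and 18.8 CPM in cortical GFP-positive, 11.5, 12.6 and 14 CPM in cortical GFP-negative, 24.6, 18.7 and 23.3 CPM in medullary GFP-positive and 44.8 and 48.9 CPM in medullary GFP-negative libraries. Its cortical gates overlapped, and it was 2.11-fold lower (log2 change -1.08, SE 0.344, edgeR adjusted p = 0.0488) in medullary GFP-positive than in medullary GFP-negative cells.

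**Figure D2:**
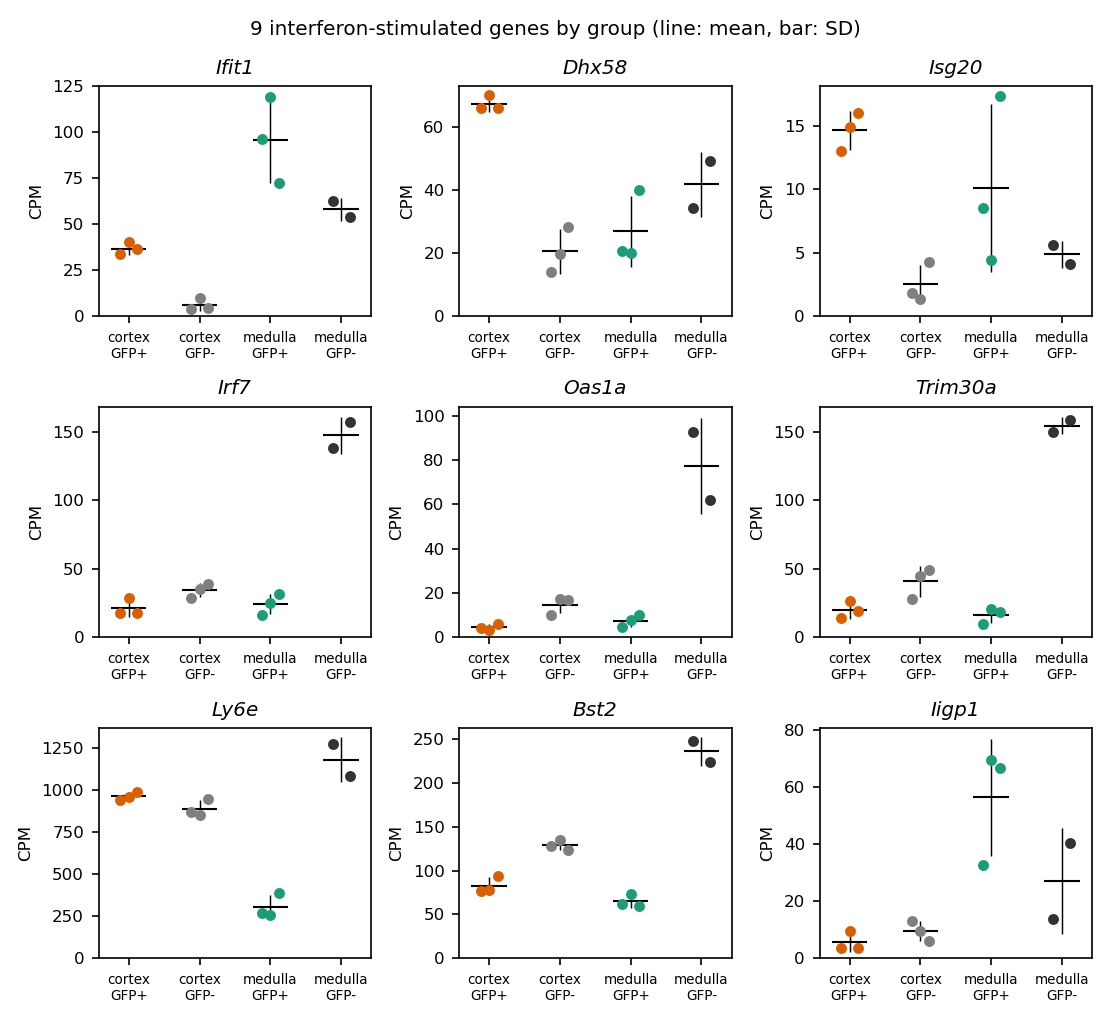
Levels of 9 interferon-stimulated genes in CPM on linear axes from 0, one point per library, with the group mean as a line and the SD as a bar; groups run from cortical GFP-positive to medullary GFP-negative. Ifit1, Dhx58 and Isg20 are higher in cortical GFP-positive than in cortical GFP-negative cells, Irf7, Oas1a, Trim30a and Bst2 stand highest in medullary GFP-negative cells, Ly6e is lowest in medullary GFP-positive cells, and Iigp1 has its highest mean there.

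Antiviral effectors split between genes that were higher and genes that were lower in cortical GFP-positive cells. Ifit1 (ENSMUSG00000034459, chromosome 19, 34640871 to 34650009, mm10), whose protein binds viral RNA by its end and blocks translation, had 33.8, 40.3 and 36.4 CPM in cortical GFP-positive, 3.96, 9.98 and 4.72 CPM in cortical GFP-negative, 96.6, 119 and 72.2 CPM in medullary GFP-positive and 62.4 and 53.7 CPM in medullary GFP-negative libraries. The lowest cortical GFP-positive library was above the highest cortical GFP-negative library by a wide margin, and the medullary libraries were above both. Ifit1 averaged 36.8 ± 3.25 CPM in cortical GFP-positive and 6.22 ± 3.28 CPM in cortical GFP-negative cells (SD, n = 3 each), 5.91-fold higher (log2 change 2.56, SE 0.331, edgeR adjusted p = 0.000922) in GFP-positive cells. It was lower in cortex than in medulla in both gates, 2.61-fold lower in GFP-positive (edgeR adjusted p = 0.0152) and 9.32-fold lower in GFP-negative cells (edgeR adjusted p = 0.000681). Its neighbours on chromosome 19, Ifit2 and Ifit3, were not called between gates. For GFP-positive over GFP-negative cells, the log2 change of Ifit2 was -1.33 in the cortex and -1.16 in the medulla (edgeR adjusted p = 0.154 and 0.212). That of Ifit3 was 0.76 and 0.86 (edgeR adjusted p = 0.126 and 0.106). Ifit2 had 4.54, 6.31 and 11.1 CPM in cortical GFP-positive, 7.13, 17 and 31.2 CPM in cortical GFP-negative, 35.2, 65.4 and 21.8 CPM in medullary GFP-positive and 63.1 and 119 CPM in medullary GFP-negative libraries. Ifit3 had 27.3, 28.8 and 35.6 CPM in cortical GFP-positive, 11.8, 17.1 and 25.3 CPM in cortical GFP-negative, 64.7, 135 and 95.7 CPM in medullary GFP-positive and 56.8 and 51.6 CPM in medullary GFP-negative libraries, with the GFP-positive libraries above the GFP-negative ones in each tissue and no call in either. Both were lower in cortex than in medulla, Ifit3 3.22-fold lower (log2 change -1.69, SE 0.31, edgeR adjusted p = 0.00588) in GFP-positive cells.

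Isg20, an exonuclease that degrades RNA, had 13, 14.9 and 16 CPM in cortical GFP-positive, 1.87, 1.36 and 4.29 CPM in cortical GFP-negative, 8.56, 4.41 and 17.3 CPM in medullary GFP-positive and 5.62 and 4.14 CPM in medullary GFP-negative libraries. It was 5.84-fold higher (log2 change 2.55, SE 0.55, edgeR adjusted p = 0.0123) in cortical GFP-positive than in cortical GFP-negative cells, and its medullary gates overlapped. Rsad2, which encodes viperin, an enzyme that makes a chain-terminating nucleotide, had 18.1, 25.3 and 17.7 CPM in cortical GFP-positive, 4.37, 12.4 and 13.3 CPM in cortical GFP-negative, 10.4, 18.1 and 13.7 CPM in medullary GFP-positive and 30.3 and 55.7 CPM in medullary GFP-negative libraries. In the cortex the GFP-positive libraries were higher without a call, at a log2 change of 1.03 (edgeR adjusted p = 0.125), and in the medulla Rsad2 was 3.05-fold lower (log2 change -1.61, SE 0.448, edgeR adjusted p = 0.028) in GFP-positive cells. Mx1, a dynamin-like GTPase that blocks virus replication, had 0.979, 0.944 and 1.62 CPM in cortical GFP-positive, 6.87, 12.6 and 17.3 CPM in cortical GFP-negative, 0, 4.79 and 3.76 CPM in medullary GFP-positive and 42.4 and 39.5 CPM in medullary GFP-negative libraries. The 0 allows up to 0.157 CPM at the floor of 3 counts in that library. Mx1 was 10.3-fold lower (log2 change -3.37, SE 0.975, edgeR adjusted p = 0.0435) in GFP-positive cells of the cortex and 14.2-fold lower (log2 change -3.83, SE 1.01, edgeR adjusted p = 0.0223) in those of the medulla. Mx2, annotated in the authors' deposited table as a polymorphic pseudogene, had 0.712, 2.15 and 2.66 CPM in cortical GFP-positive, 0.709, 6.35 and 5.08 CPM in cortical GFP-negative, 6.4, 10.9 and 6.78 CPM in medullary GFP-positive and 25.2 and 19.1 CPM in medullary GFP-negative libraries, and was called in the comparison of GFP-negative cells between tissues, where it was 5.47-fold lower (log2 change -2.45, SE 0.745, edgeR adjusted p = 0.0447) in cortex.

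Ly6e and Bst2 encode proteins anchored in the cell surface, and they had the smallest adjusted p of the list between medullary gates. Ly6e (ENSMUSG00000022587, chromosome 15, 74955051 to 74959905, mm10), which restricts virus entry, had 941, 959 and 988 CPM in cortical GFP-positive, 866, 850.2 and 944 CPM in cortical GFP-negative, 267, 255 and 386 CPM in medullary GFP-positive and 1274 and 1085 CPM in medullary GFP-negative libraries. Both cortical groups and medullary GFP-negative cells were high, and the 3 medullary GFP-positive libraries were low. Ly6e was 3.9-fold lower (log2 change -1.96, SE 0.172, edgeR adjusted p = 7.81e-05) in medullary GFP-positive than in medullary GFP-negative cells, and 3.18-fold higher (log2 change 1.67, SE 0.159, edgeR adjusted p = 0.000265) in cortical than in medullary GFP-positive cells, while its cortical gates overlapped. Bst2 (ENSMUSG00000046718, chromosome 8, 71534255 to 71537456, mm10), or tetherin, which holds budding virus particles at the membrane, had 76.4, 78.2 and 94.1 CPM in cortical GFP-positive, 128, 135 and 124 CPM in cortical GFP-negative, 62.2, 72.9 and 59.7 CPM in medullary GFP-positive and 248 and 224 CPM in medullary GFP-negative libraries. Groups did not overlap in any of the 4 comparisons between groups. It was 1.55-fold lower (log2 change -0.63, SE 0.128, edgeR adjusted p = 0.0086) in GFP-positive cells of the cortex and 3.63-fold lower (log2 change -1.86, SE 0.141, edgeR adjusted p = 4.27e-05) in those of the medulla.

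The oligoadenylate synthetase family is named for enzymes that make short oligoadenylates, which switch on the RNA-degrading enzyme RNase L. All 5 genes of this family in the list, not each of which need have that activity, fell in medullary GFP-positive cells. Their summed level was 18.7, 26.3 and 24 CPM in cortical GFP-positive, 74.7, 106 and 96.6 CPM in cortical GFP-negative, 34.7, 142 and 84.5 CPM in medullary GFP-positive and 536 and 480 CPM in medullary GFP-negative libraries. Oas1a (ENSMUSG00000052776, chromosome 5, 120896256 to 120907521, mm10) had 4.27, 3.48 and 6.12 CPM in cortical GFP-positive, 10.2, 17.2 and 16.9 CPM in cortical GFP-negative, 4.44, 7.85 and 9.91 CPM in medullary GFP-positive and 92.8 and 61.9 CPM in medullary GFP-negative libraries. Its gates did not overlap in either tissue, and it was 3.19-fold lower (log2 change -1.68, SE 0.353, edgeR adjusted p = 0.0108) in GFP-positive cells of the cortex and 10.4-fold lower (log2 change -3.38, SE 0.387, edgeR adjusted p = 0.000284) in those of the medulla. Oas2 and Oas3, which lie beside Oas1a on chromosome 5, were nearly absent from some GFP-positive libraries. Oas2 had 0.712, 5.19 and 3.65 CPM in cortical GFP-positive, 22.4, 36.4 and 29.2 CPM in cortical GFP-negative, 0, 10.2 and 0.783 CPM in medullary GFP-positive and 167 and 183 CPM in medullary GFP-negative libraries. It was 46-fold lower (log2 change -5.52, SE 1.23, edgeR adjusted p = 0.0101) in medullary GFP-positive cells and had no call in the cortex, with a log2 change of -3.20 (edgeR adjusted p = 0.0793). Oas2 has no adjusted p in the authors' deposited tables. Oas3 had 0, 0.429 and 0.045 CPM in cortical GFP-positive, 3.77, 3.01 and 7.4 CPM in cortical GFP-negative, 0.103, 2.54 and 0.261 CPM in medullary GFP-positive and 41.8 and 24 CPM in medullary GFP-negative libraries, of which the cortical GFP-positive values rest on 11 counts over the 3 libraries. It was 28.6-fold lower (log2 change -4.84, SE 1.24, edgeR adjusted p = 0.0263) in GFP-positive cells of the cortex and 32.6-fold lower (log2 change -5.03, SE 1.17, edgeR adjusted p = 0.0124) in those of the medulla. Medullary GFP-positive library 2 held most of the Oas2 and Oas3 of its group, and without it their log2 changes in the medulla were -8.79 and -7.46. Without cortical GFP-positive library 2, the log2 change of Oas3 in the cortex was -7.42. The Oas-like genes lie close together elsewhere on chromosome 5. Oasl1 had 2.31, 2.28 and 0.63 CPM in cortical GFP-positive, 5, 4.7 and 4.96 CPM in cortical GFP-negative, 0.464, 0.764 and 3.5 CPM in medullary GFP-positive and 17 and 20.7 CPM in medullary GFP-negative libraries, and was 12-fold lower (log2 change -3.59, SE 0.778, edgeR adjusted p = 0.00876) in medullary GFP-positive cells (log2 change -4.91 without medullary GFP-positive library 3). Oasl2 had 11.4, 14.9 and 13.6 CPM in cortical GFP-positive, 33.4, 44.8 and 38.1 CPM in cortical GFP-negative, 29.7, 121 and 70.1 CPM in medullary GFP-positive and 217 and 190.3 CPM in medullary GFP-negative libraries. It was called in all 4 comparisons between groups, 2.91-fold lower (log2 change -1.54, SE 0.395, edgeR adjusted p = 0.0266) in GFP-positive cells of the cortex, 2.77-fold lower in those of the medulla (edgeR adjusted p = 0.0312) and 5.53-fold lower in cortical than in medullary GFP-positive cells (edgeR adjusted p = 0.00334).

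The interferon-induced GTPases, which attack the vacuoles of intracellular pathogens, were called more often between tissues than between gates. None of the 6 was called between medullary gates, and all 6 were called lower in cortical than in medullary GFP-positive cells. Their summed level was 147, 166 and 174 CPM in cortical GFP-positive, 192, 225 and 209 CPM in cortical GFP-negative, 309, 576 and 428 CPM in medullary GFP-positive and 471 and 481 CPM in medullary GFP-negative libraries. Iigp1, an immunity-related GTPase of mice, had 3.74, 9.7 and 3.78 CPM in cortical GFP-positive, 13.1, 9.47 and 5.9 CPM in cortical GFP-negative, 32.7, 69.6 and 66.8 CPM in medullary GFP-positive and 13.9 and 40.3 CPM in medullary GFP-negative libraries. It was 9.8-fold lower (log2 change -3.29, SE 0.557, edgeR adjusted p = 0.00386) in cortical than in medullary GFP-positive cells, and its gates overlapped in both tissues. Igtp, of the same family, had 18.3, 18.4 and 29.2 CPM in cortical GFP-positive, 22.8, 40.7 and 31.1 CPM in cortical GFP-negative, 44.7, 103 and 71.5 CPM in medullary GFP-positive and 82.9 and 57.6 CPM in medullary GFP-negative libraries, and was 3.33-fold lower (log2 change -1.73, SE 0.34, edgeR adjusted p = 0.00803) in cortical GFP-positive cells. Irgm1, a regulator of that family, had 59.2, 57.4 and 66.9 CPM in cortical GFP-positive, 51.3, 75.1 and 55.4 CPM in cortical GFP-negative, 86.3, 144 and 125 CPM in medullary GFP-positive and 152 and 224 CPM in medullary GFP-negative libraries. It was lower in cortex in both gates, 1.94-fold lower in GFP-positive (edgeR adjusted p = 0.0188) and 3.1-fold lower in GFP-negative cells (edgeR adjusted p = 0.00257). The guanylate-binding proteins form the other family. Gbp2 had 21.6, 10.9 and 24.8 CPM in cortical GFP-positive, 29.6, 24.6 and 32.2 CPM in cortical GFP-negative, 43.2, 128 and 55.3 CPM in medullary GFP-positive and 65.1 and 33.8 CPM in medullary GFP-negative libraries, and was 3.96-fold lower (log2 change -1.99, SE 0.448, edgeR adjusted p = 0.015) in cortical than in medullary GFP-positive cells, or at a log2 change of -1.37 (adjusted p = 0.0453) without medullary GFP-positive library 2. Gbp3 had 12.1, 20.6 and 12.3 CPM in cortical GFP-positive, 25.5, 31.8 and 42.7 CPM in cortical GFP-negative, 41.7, 69.8 and 31.9 CPM in medullary GFP-positive and 92.7 and 61.1 CPM in medullary GFP-negative libraries, and was the GTPase that also fell in cortical GFP-positive against GFP-negative cells, 2.22-fold lower (log2 change -1.15, SE 0.341, edgeR adjusted p = 0.048). Gbp7 had 31.7, 48.7 and 37.2 CPM in cortical GFP-positive, 49.3, 43.3 and 41.4 CPM in cortical GFP-negative, 60.3, 60.7 and 78.2 CPM in medullary GFP-positive and 64.5 and 64.7 CPM in medullary GFP-negative libraries, and was 1.69-fold lower (log2 change -0.76, SE 0.18, edgeR adjusted p = 0.0184) in cortical GFP-positive cells.

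Psmb8 and Psmb9, which replace catalytic subunits of the proteasome so that it cuts more peptides suited to MHC class I, fell together. Psmb8 had 38.3, 37.7 and 34.4 CPM in cortical GFP-positive, 75.3, 67.8 and 94.9 CPM in cortical GFP-negative, 87.8, 123 and 69.3 CPM in medullary GFP-positive and 202 and 208 CPM in medullary GFP-negative libraries. Psmb9 had 21.1, 19.8 and 21.6 CPM in cortical GFP-positive, 36, 41.1 and 51.7 CPM in cortical GFP-negative, 36.2, 51 and 39.9 CPM in medullary GFP-positive and 116 and 126 CPM in medullary GFP-negative libraries. Both were called in all 4 comparisons between groups, none of which had overlapping libraries. In GFP-positive cells, Psmb8 was 2.16-fold lower (log2 change -1.11, SE 0.205, edgeR adjusted p = 0.0057) in the cortex and 2.19-fold lower (log2 change -1.13, SE 0.223, edgeR adjusted p = 0.00522) in the medulla. Psmb9 was 2.06-fold lower (log2 change -1.04, SE 0.175, edgeR adjusted p = 0.00344) in GFP-positive cells of the cortex and 2.86-fold lower (log2 change -1.51, SE 0.19, edgeR adjusted p = 0.000458) in those of the medulla. Of the 14 constitutive proteasome subunits, none fell in any comparison and none rose between cortical gates. Psmb5, the subunit that Psmb8 replaces, was 1.61-fold higher (log2 change 0.69, SE 0.161, edgeR adjusted p = 0.013) in medullary GFP-positive cells and was higher in cortex than in medulla in both gates, the opposite direction to Psmb8.

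Of the remaining 7 induced genes, Xaf1, Parp14, Ifi35, Ifi44 and Trim30a were lower wherever they were called, Ifi27 was higher wherever it was called, and Trim30d was called in both directions. Ifi27, a small membrane protein, was the gene that was higher in cortex in both gates, with 876, 796 and 766 CPM in cortical GFP-positive, 715, 675 and 683 CPM in cortical GFP-negative, 379.5, 477 and 459 CPM in medullary GFP-positive and 352 and 242 CPM in medullary GFP-negative libraries. It was 1.85-fold higher (log2 change 0.89, SE 0.149, edgeR adjusted p = 0.0037) in cortical than in medullary GFP-positive cells and 2.33-fold higher (log2 change 1.22, SE 0.173, edgeR adjusted p = 0.00184) in cortical than in medullary GFP-negative cells, and 1.48-fold higher (log2 change 0.56, SE 0.168, edgeR adjusted p = 0.0375) in medullary GFP-positive than in GFP-negative cells. Per kilobase of gene model, a length that need not be that of the transcripts made, it also had the highest level of the list in cortical GFP-positive cells. Its mean there was 554 CPM per kilobase, beside 254 for Ly6e and 91.8 for Bst2. In medullary GFP-negative cells the mean level per kilobase was 202 CPM for Ifi27, 312 for Ly6e and 261 for Bst2. Trim30d (ENSMUSG00000057596, chromosome 7, 104470014 to 104507849, mm10) and its neighbour Trim30a, known in mice to damp Toll-like receptor signalling, differed in the cortex. Trim30d had 24.2, 29.8 and 23.2 CPM in cortical GFP-positive, 17.1, 15.8 and 15.7 CPM in cortical GFP-negative, 18.8, 13.7 and 19.5 CPM in medullary GFP-positive and 51.1 and 58.6 CPM in medullary GFP-negative libraries, 1.59-fold higher (log2 change 0.67, SE 0.182, edgeR adjusted p = 0.0345) in GFP-positive cells of the cortex and 3.17-fold lower (log2 change -1.66, SE 0.2, edgeR adjusted p = 0.000356) in those of the medulla, the only gene of the list called in opposite directions in the 2 tissues. Trim30a had 14, 26.9 and 19.1 CPM in cortical GFP-positive, 28.3, 44.6 and 49.5 CPM in cortical GFP-negative, 9.75, 20.6 and 18.7 CPM in medullary GFP-positive and 150.4 and 159 CPM in medullary GFP-negative libraries. It was 9.43-fold lower (log2 change -3.24, SE 0.364, edgeR adjusted p = 0.000258) in medullary GFP-positive cells, and in the cortex lay lower without a call, at a log2 change of -1.03 (edgeR adjusted p = 0.059).

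Ifi44, a cytoplasmic protein, had 8.27, 22.5 and 13.4 CPM in cortical GFP-positive, 7.02, 18.3 and 10.5 CPM in cortical GFP-negative, 8.05, 4.38 and 15.2 CPM in medullary GFP-positive and 29.5 and 44.2 CPM in medullary GFP-negative libraries, and was 4.02-fold lower (log2 change -2.01, SE 0.57, edgeR adjusted p = 0.0309) in medullary GFP-positive cells. Ifi35 had 48.4, 44.3 and 46.2 CPM in cortical GFP-positive, 44, 55.2 and 52.1 CPM in cortical GFP-negative, 64.9, 86 and 49.8 CPM in medullary GFP-positive and 94.6 and 79.7 CPM in medullary GFP-negative libraries, and was 1.73-fold lower (log2 change -0.79, SE 0.21, edgeR adjusted p = 0.0272) in cortical than in medullary GFP-negative cells. Xaf1, which promotes cell death, and Parp14, which adds ADP-ribose to proteins, were called between tissues and not between gates. Xaf1 had 30.7, 26.2 and 31.3 CPM in cortical GFP-positive, 24.4, 27.1 and 24.2 CPM in cortical GFP-negative, 62, 108 and 76.2 CPM in medullary GFP-positive and 89.4 and 100.1 CPM in medullary GFP-negative libraries, and was 2.8-fold lower (log2 change -1.48, SE 0.197, edgeR adjusted p = 0.00117) in cortical than in medullary GFP-positive cells. Parp14 had 11.6, 19.7 and 6.03 CPM in cortical GFP-positive, 23.5, 32.6 and 35.1 CPM in cortical GFP-negative, 36.7, 88.7 and 43.5 CPM in medullary GFP-positive and 111 and 107 CPM in medullary GFP-negative libraries, and was 4.53-fold lower (log2 change -2.18, SE 0.436, edgeR adjusted p = 0.00875) in the same comparison.

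The gate within the cortex asks how Nestin-GFP-positive cells differ from the other cells of that tissue. Genes that were lower in GFP-positive cells came from several roles (Mx1, Oas1a, Oas3, Oasl2, Irf1, Bst2, Psmb8, Psmb9, Zbp1 and Gbp3), and those that were higher were Ifit1, Isg20, Dhx58 and Trim30d. The macrophage markers were 23.3-fold lower in their summed level in GFP-positive cells than in GFP-negative ones, with 13 of 14 called lower, and those of pericytes, chromaffin cells and Schwann cells were 47.9-fold, 43.8-fold and 42.4-fold higher (5, 3 and 7 of 8 called higher). The chromaffin sum was 102, 4.72 and 8.64 CPM in GFP-positive and 1.57, 0.44 and 0.63 CPM in GFP-negative libraries, so its fold rests mostly on GFP-positive library 1. The part of any of these cell types in the 14 calls was not tested. All 14 calls had the same sign at 2.5 months (1 library per gate) and at 3.5 months (2 per gate), with a median log2 difference of the lower genes of -1.58 and -1.35. The gates did not overlap for any of the 14, so that sign was fixed in advance and is no check on age. Oas1a, Bst2, Irf1, Dhx58, Psmb9, Psmb8 and Ifit1 kept their call under all 20 alternative settings.

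The other 7 calls of the cortical gates depended on single libraries. Without cortical GFP-positive 1 or 3 or cortical GFP-negative 3, the number of lower genes was 5, and without cortical GFP-negative library 1 the number of higher genes was 2. Trim30d missed the threshold without any 1 of the 6 cortical libraries (adjusted p = 0.05 to 0.129), with total counts as scale (0.0641) and without a filter on low counts (0.0736). Isg20 missed it without cortical GFP-negative library 1 (adjusted p = 0.0543), and its log2 change was 3.18 without cortical GFP-negative library 3. Mx1 missed it without any library other than medullary GFP-positive 1 and 2 (0.0556 to 0.12). Oasl2 missed it without any cortical library other than GFP-negative 1 (0.058 to 0.0757), Zbp1 without cortical GFP-positive 1 or 3 or GFP-negative 1 or 3 (0.0539 to 0.0714), and Oas3 without cortical GFP-positive 1 or 3 or GFP-negative 3 (0.0654 to 0.083). Gbp3 missed it without cortical GFP-positive 1 or 3, cortical GFP-negative 2 or 3, medullary GFP-positive 1 or either medullary GFP-negative library (0.052 to 0.155). The log2 change of Zbp1 was -2.87 without cortical GFP-positive library 2. In the authors' deposited table, whose test statistic is that of a change beyond 2-fold, 2 of the 38 genes with an adjusted p (all but Oas2) passed, against 3.64% of all genes. These were Ifit1, with a log2 fold change of 2.5, and Oas3, with -3.98.

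**Figure D3:**
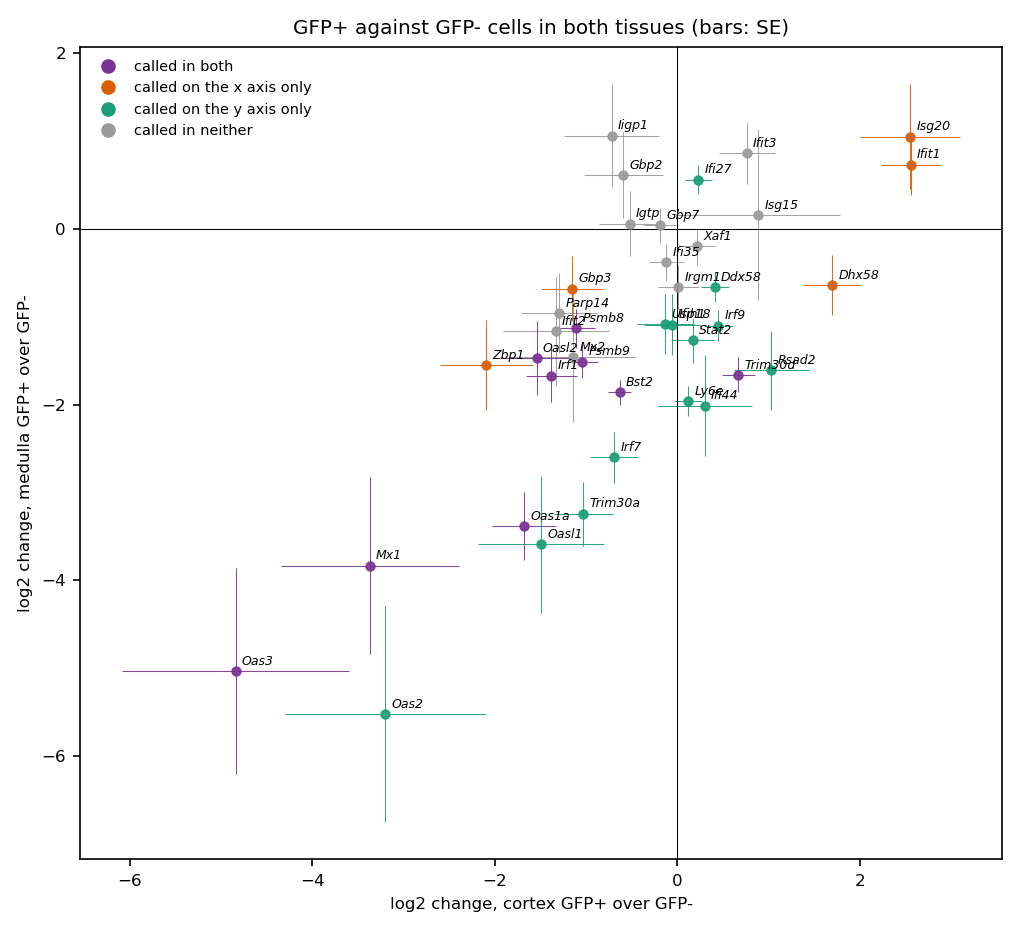
Log2 change of each of the 39 genes between GFP-positive and GFP-negative cells in the cortex (x axis) and in the medulla (y axis), with the SE as bars and colours for the comparisons in which the gene was called. Mx1, Oas3, Oas1a and 5 others are called lower in both tissues, Ifit1, Isg20 and Dhx58 are called higher in the cortex alone, and Trim30d is called in opposite directions.

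The gate within the medulla asks the same of that tissue. All 4 transcription factors, all 5 oligoadenylate synthetases and both immunoproteasome subunits fell in GFP-positive cells, together with Ly6e, Bst2, Mx1, Rsad2, Usp18, Ddx58, Ifih1, Ifi44, Trim30a and Trim30d, and Ifi27 rose. In both tissues 8 of the genes fell, Mx1, Oas1a, Oas3, Oasl2, Irf1, Bst2, Psmb8 and Psmb9. The macrophage markers were 22.4-fold lower in GFP-positive cells, with all 14 called lower, and Schwann cell and glia markers 139-fold higher, with 7 of 8 called higher. Steroid cell markers were 2.46-fold higher in their summed level, with 4 of 8 called higher and 2 lower. Endothelial markers summed to 250.3 to 354 CPM in GFP-positive libraries and 318 and 1089 CPM in GFP-negative libraries. Dendritic cell markers summed to 8.77 to 14.3 CPM in GFP-positive and 21.4 and 89.1 CPM in GFP-negative libraries, and lymphocyte markers to 0.991 to 10.5 CPM in GFP-positive and 31.8 and 48.7 CPM in GFP-negative libraries, with 6 of the 12 lymphocyte markers at 0 in all GFP-positive libraries and 2 in both GFP-negative libraries. Their part in these differences was not tested. GFP-negative libraries were from the older mice, and against GFP-positive library 1, of the same age, all 22 calls had the same sign, with a median log2 difference of the lower genes of -1.94. That sign was fixed in advance, since the gates did not overlap for any of the 22, and is no check on age. In the authors' deposited table, the genes that passed were 8 of 38, all lower, against 6.13% of all genes: Trim30a, Oas1a, Bst2, Ly6e, Irf7, Oas3, Oasl1 and Trim30d.

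With 2 GFP-negative libraries in the medulla, each weighed on the calls. Without GFP-negative library 1 the number of lower genes was 14, with Ddx58 (adjusted p = 0.144), Oasl2 (0.118), Usp18 (0.117), Ifih1 (0.0725), Mx1 (0.0675), Oas3 (0.058) and Ifi44 (0.0541) over the threshold. Without GFP-negative library 2 it was 15, with Ifih1 (0.234), Rsad2 (0.214), Usp18 (0.171), Ifi44 (0.153), Oasl2 (0.0838) and Mx1 (0.0663) over it. Leaving out a medullary GFP-positive library also took Usp18 (adjusted p = 0.0796 to 0.119) over it in each case. Library 1 of that group took with it Ifih1 (0.124), Ifi44 (0.0848), Rsad2 (0.0837) and Ddx58 (0.0522), library 2 Ifih1 (0.104) and Ifi44 (0.073), and library 3 Oasl2 (0.0816), Rsad2 (0.0735), Ddx58 (0.0576) and Mx1 (0.053). Usp18 also missed it without any cortical GFP-negative library (0.0532 to 0.0668), and Ifih1 without cortical GFP-positive 2 or GFP-negative 2 or 3 (0.0512 to 0.0654). The rise of Ifi27 was lost without any library other than cortical GFP-positive 3, medullary GFP-positive 1 and medullary GFP-negative 1 (0.0561 to 0.239). The log2 change of Mx1 was -4.44 without medullary GFP-positive library 2. Oasl1, Oas2, Oas1a, Trim30a, Trim30d, Irf7, Stat2, Bst2, Irf9, Irf1, Ly6e, Psmb9 and Psmb8 kept their call under all 20 settings.

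Whether the gate difference itself depended on the tissue was tested as the cortical minus the medullary difference. The 7 genes called were Dhx58 at 2.34 (SE 0.465, edgeR adjusted p = 0.0392), Trim30d at 2.33 (SE 0.271, edgeR adjusted p = 0.00861) and Ly6e at 2.08 (SE 0.231, edgeR adjusted p = 0.00776) on the log2 scale. They also included Irf7 at 1.91 (SE 0.39, edgeR adjusted p = 0.0425), Irf9 at 1.55 (SE 0.234, edgeR adjusted p = 0.0223), Bst2 at 1.23 (SE 0.19, edgeR adjusted p = 0.0224) and Ddx58 at 1.07 (SE 0.226, edgeR adjusted p = 0.0487). Bst2 was lower in GFP-positive cells of both tissues and more so in the medulla, Dhx58 was higher in those of the cortex, and Trim30d changed in opposite directions. The macrophage markers had a median log2 value of 0.44 in this test, and their summed level was 23.3-fold lower in GFP-positive cells of the cortex and 22.4-fold lower in those of the medulla. Endothelial markers summed 1.25-fold higher in GFP-positive cells of the cortex and 2.28-fold lower in those of the medulla. Dendritic cell markers were 1.14-fold and 4.53-fold lower in their sum, and pericyte markers 47.9-fold and 1.27-fold higher, in the same order. By gene, the 6 dendritic cell markers had median log2 changes of -3.35 in the cortex and -3.77 in the medulla. In each tissue 2 of them were called lower, and 0 were called in the test of the difference. The part of these cells was not tested. Trim30d and Ly6e kept their call under every setting in which this test was run, that is all but the fit of the compared groups alone. The others rested on single libraries. Without cortical GFP-negative library 3 or medullary GFP-negative library 2, 2 genes were called, and 3 without cortical GFP-negative library 2. With any 1 of the cortical GFP-positive libraries, cortical GFP-negative 1 or medullary GFP-positive 1 left out, 4 were called. Irf7 missed the threshold without any library other than medullary GFP-positive 3 (adjusted p = 0.0555 to 0.144). Dhx58 missed it without any other than medullary GFP-positive 3 and GFP-negative 1 (0.0506 to 0.144), and Ddx58 without any other than medullary GFP-positive 2 (0.0547 to 0.0996). Bst2 (0.0516 to 0.0569) and Irf9 (0.0506 to 0.0662) missed it without cortical GFP-negative 2 or 3 or medullary GFP-negative 2. Age and gate are partly confounded in the medulla, and with age as a term 4 genes were called.

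Between tissues, GFP-positive cells of the cortex held less of the GTPases, of Ifit1, Ifit2 and Ifit3, of Oasl2, Irf1, Zbp1, Psmb8, Psmb9, Xaf1 and Parp14, and more of Ly6e, Dhx58 and Ifi27. Irf7, Irf9 and Stat2 were not called there, at log2 changes of -0.19 (edgeR adjusted p = 0.698), -0.20 (edgeR adjusted p = 0.471) and -0.25 (edgeR adjusted p = 0.552). Macrophage markers were 5-fold lower in cortical than in medullary GFP-positive cells (4 of 14 called lower) and Schwann cell markers 11.6-fold lower (7 of 8). Chromaffin cell markers were 189-fold lower and steroid cell markers 2.17-fold higher, each with 8 of 8 called. The part of these cells was not tested. All 19 calls had the same sign at 2.5 months (1 cortical and 2 medullary libraries) and at 3.5 months (2 and 1), with a median log2 difference of the lower genes of -1.60 and -1.25. Here too the groups did not overlap for any of the 19, which fixed the sign in advance. Of the 19, 14 kept their call under all 20 settings. Without cortical GFP-positive library 1, Ifit2 (adjusted p = 0.0736), Gbp7 (0.0727), Irgm1 (0.0668), Ifit1 (0.054) and Dhx58 (0.0517) missed the threshold. Without medullary GFP-positive library 2, Dhx58 (0.0695), Ifit2 (0.0668), Irgm1 (0.0662) and Ifit1 (0.054) missed it. Ifit2 (0.0634) and Irgm1 (0.0627) missed it without cortical library 2, Gbp7 (0.0626) and Ifit1 (0.0501) without cortical library 3, Dhx58 (0.0657) without medullary library 1 and Gbp7 (0.0556) without medullary library 3. Without cortical library 2 the log2 changes of Iigp1 and Zbp1 were -3.88 and -3.77. In the authors' deposited table, the genes that passed were 4 of 38, against 4.09% of all genes. These were Ly6e, higher in cortex, and Iigp1, Zbp1 and Oasl2, lower.

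**Figure D4:**
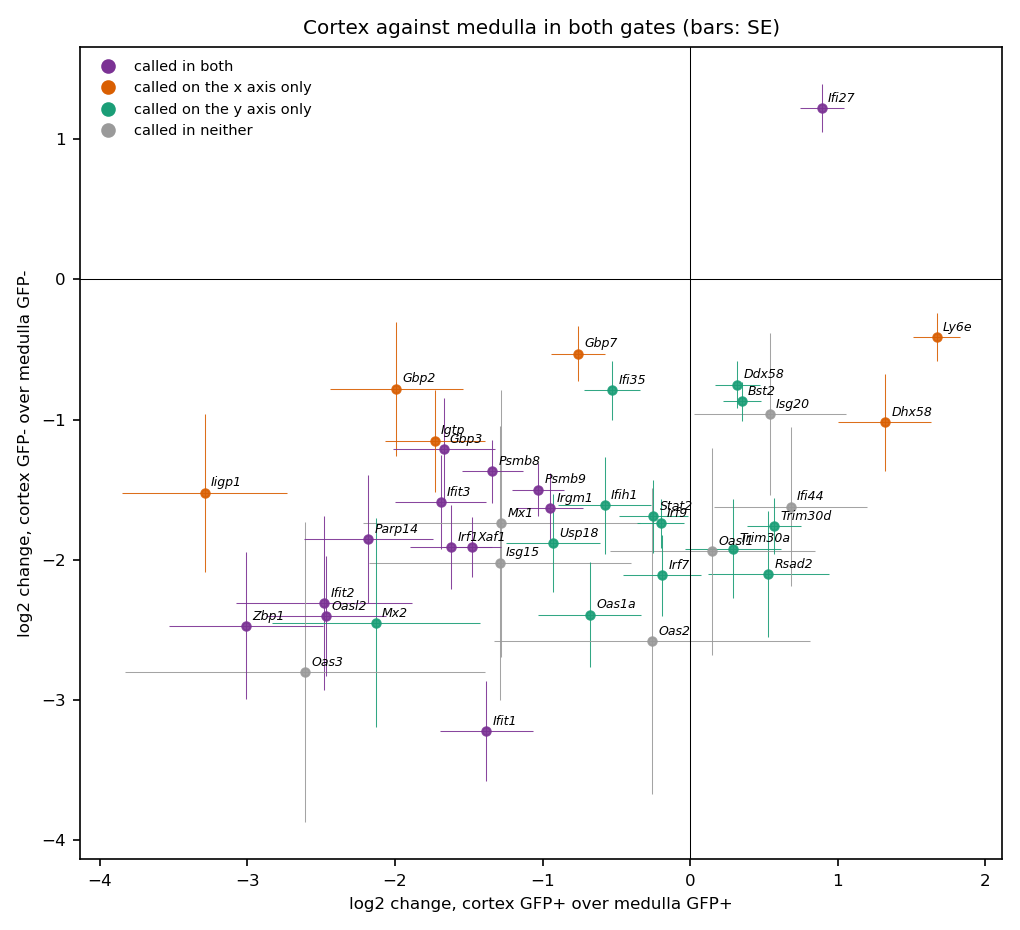
Log2 change of each of the 39 genes between cortex and medulla in GFP-positive cells (x axis) and in GFP-negative cells (y axis), with the SE as bars and colours for the comparisons in which the gene was called. Most points lie below 0 on both axes, Ifi27 is called higher in cortex in both gates, and Ly6e and Dhx58 are called higher in GFP-positive cells.

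GFP-negative cells of the cortex held less of 25 genes than those of the medulla, including all 4 transcription factors, Ifit1, Ifit2 and Ifit3, both immunoproteasome subunits, Bst2, Oas1a, Oasl2, Trim30a and Trim30d. Xaf1 was 3.75-fold lower (log2 change -1.91, SE 0.214, edgeR adjusted p = 0.000688), Irf9 3.34-fold lower (log2 change -1.74, SE 0.173, edgeR adjusted p = 0.000446) and Trim30d 3.39-fold lower (log2 change -1.76, SE 0.2, edgeR adjusted p = 0.000731) in cortical GFP-negative cells. Ifi27 was the gene that was higher. Macrophage markers were 4.82-fold lower in cortical than in medullary GFP-negative cells (10 of 14 called lower) and endothelial markers 5.1-fold lower (5 of 10). Chromaffin cell markers summed to a mean of 0.879 CPM in cortical and 6391 CPM in medullary GFP-negative cells (8 of 8 called lower), pericyte markers to 2.88 and 134 CPM (2 of 8 lower), and steroid cell markers were 3.08-fold higher in the cortex (6 of 8). The part of these cells was not tested. Against the 2 cortical libraries of the same age, all 26 calls had the same sign, with a median log2 difference of the lower genes of -1.89. As the groups did not overlap for any of the 26, that sign was fixed in advance. Under all 20 settings 18 calls were kept. Gbp3 missed the threshold without any library other than cortical GFP-positive 1 and 2 and medullary GFP-positive 2 and 3 (adjusted p = 0.0502 to 0.224), and Mx2 without any other than library 1 of either cortical group (0.0507 to 0.13). Ifi35 (0.0602 to 0.125) missed it without cortical GFP-negative 1 or 3 or either medullary GFP-negative library, Parp14 (0.0534 to 0.0865) without cortical GFP-negative 1 or 2 or either medullary one, and Ifit2 (0.0637 to 0.193) without cortical GFP-negative 1 or 2 or medullary GFP-negative 2. Ddx58 (0.0843) missed it without medullary GFP-negative library 1, and Ifih1 (0.0889) and Rsad2 (0.107) without medullary GFP-negative library 2. The log2 change of Ifit2 was -2.92 without cortical GFP-negative library 3.

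**Figure D5:**
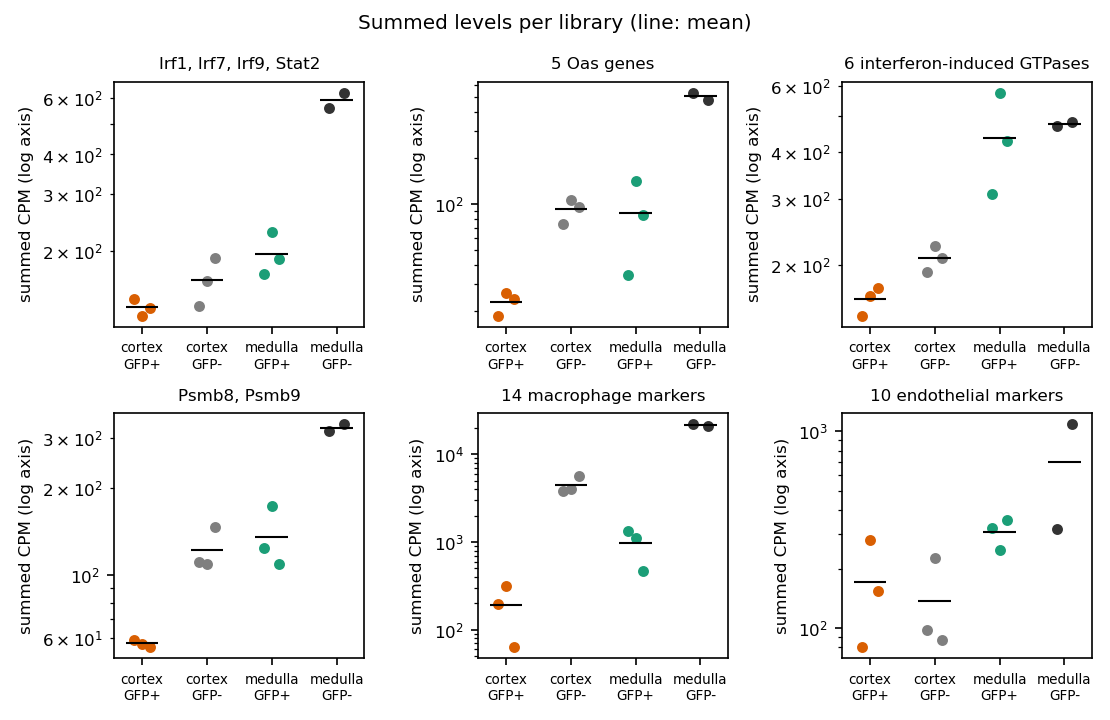
Summed levels of 4 roles of the interferon-stimulated genes and of 14 macrophage and 10 endothelial markers, in CPM on log axes, one point per library with the group mean as a line; groups run from cortical GFP-positive to medullary GFP-negative. The macrophage sum spans 63.3 to 22125 CPM and is highest in medullary GFP-negative cells, as are the sums of the transcription factors and of the Oas genes, whereas the GTPase sums of the medullary gates overlap.

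The libraries of a group also differed among themselves. Medullary GFP-positive library 2 was the highest of its group for 28 of the 39 genes (71.8%, against 38.1% of all genes tested). Library 1 of that group was the lowest for 22 (56.4%, against 37.5%). Library 1 was also the lowest of its group for 24 genes in cortical GFP-positive and for 25 in cortical GFP-negative cells (61.5% and 64.1%, against 36.7% and 38.1% of all genes tested). Library 2 of these cortical groups, from mice of the same age, was the lowest for 9 and 8 genes (23.1% and 20.5%, against 31.3% and 31.0%). The macrophage sum was 1323, 1109 and 464 CPM in medullary GFP-positive libraries 1, 2 and 3, and its part in these orders was not tested.

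Interferons themselves were nearly absent. Of 21 interferon genes, 11 had no count in any library, which at the floor of 3 counts allows up to 0.103 to 0.162 CPM per library. Ifnb1, a type I interferon, had 10 counts in 2 libraries, and Ifng 36 counts, all in 1 library. Ifnk had 66 counts in 8 libraries, Ifnl3 65 in 6 and Ifnl2 25 in 6, and each other interferon gene had at most 7. Ifnl3, a type III interferon, had 37 counts in cortical and 28 in medullary GFP-positive cells and none in GFP-negative cells. No fold is given for counts this low.

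Ifnar1, Ifnar2, Ifngr1 and Ifngr2 were detected in every library. Ptpn11, a phosphatase, was 1.91-fold higher (log2 change 0.93, SE 0.206, edgeR adjusted p = 0.00964) in medullary GFP-positive cells. Ifnar1, part of the type I receptor, had 34.7, 37.9 and 33.6 CPM in cortical GFP-positive, 72.1, 71.1 and 77.5 CPM in cortical GFP-negative, 24.1, 41.5 and 40.6 CPM in medullary GFP-positive and 149 and 104 CPM in medullary GFP-negative libraries, and was 2.08-fold lower (edgeR adjusted p = 0.00855) and 3.56-fold lower (edgeR adjusted p = 0.00048) in GFP-positive cells of cortex and medulla. Ifnar2, the other chain, had 64.3, 82.5 and 68.4 CPM in cortical GFP-positive, 79.3, 75.1 and 88.6 CPM in cortical GFP-negative, 65, 85.5 and 64.9 CPM in medullary GFP-positive and 171 and 178 CPM in medullary GFP-negative libraries, and fell in the medulla, 2.43-fold lower (edgeR adjusted p = 0.000545), with a cortical log2 change of -0.18 (edgeR adjusted p = 0.48). Ifngr1, which binds interferon gamma, had 69.9, 68.2 and 55.4 CPM in cortical GFP-positive, 191, 197 and 237 CPM in cortical GFP-negative, 306, 560 and 228 CPM in medullary GFP-positive and 923 and 711 CPM in medullary GFP-negative libraries. It was 5.65-fold lower (edgeR adjusted p = 0.000708) in cortical than in medullary GFP-positive cells. Socs1, an inhibitor of the kinases that is itself induced by interferon, was 5.15-fold lower and 4.83-fold lower in GFP-positive cells of cortex and medulla (edgeR adjusted p = 0.00702 and 0.00809).

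Of 51 other interferon-induced genes tested, 1 rose and 14 fell in cortical GFP-positive cells, and none rose and 25 fell in medullary GFP-positive cells. In the test of the difference 3 were called, all with the higher value in the cortex. Over all genes tested, 7.14% rose and 7.59% fell in cortical GFP-positive cells, and 10.2% rose and 11.1% fell in medullary ones. In the test of the difference 0.857% had the higher value in the cortex. Ifitm1, which restricts virus entry, was the one that rose, 12.2-fold higher (log2 change 3.60, SE 0.468, edgeR adjusted p = 0.000935) in GFP-positive cells of the cortex. Of 18 other sensing genes, 8 fell in cortical and 12 in medullary GFP-positive cells and none rose. Tmem173, the adaptor STING, had 0.712, 0.515 and 2.57 CPM in cortical GFP-positive, 20.7, 17.3 and 27.8 CPM in cortical GFP-negative, 3.35, 8.44 and 5.22 CPM in medullary GFP-positive and 90.1 and 112 CPM in medullary GFP-negative libraries, and was 17.4-fold lower and 17.7-fold lower in GFP-positive cells of cortex and medulla (edgeR adjusted p = 0.00123 and 0.000708). Irf5 and Irf8, factors known from myeloid cells, fell in both gates, with log2 changes of -4.01 (edgeR adjusted p = 0.000313) and -4.13 (edgeR adjusted p = 0.000934) in the cortex. Irf5 is also among the sensing genes counted above. Of 20 genes of MHC class I and its peptide supply, 3 fell in cortical and 11 in medullary GFP-positive cells, against 7.59% and 11.1% of all genes tested. In cortical against medullary GFP-negative cells 14 were lower, against 10.6%, and none rose in any of these comparisons.

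Some of the genes share sequence with others. The library kit marks no strand, so reads where 2 genes overlap cannot be told apart. For 4 genes the overlapping gene, on the other strand, had over 10% as many counts as the gene itself: Phrf1 for Irf7, Rnf31 for Irf9, Irgm2 for Igtp and Tap1 for Psmb9. Ifit3 and Ifit3b, Oas1a and Oas1g, Trim30a and Trim30d, the Gbp genes, and Mx1 and Mx2 have similar sequences, between which short reads may be split. Oas1g had 0.89, 2.02 and 0.54 CPM in cortical GFP-positive, 7.69, 9.36 and 7.95 CPM in cortical GFP-negative, 1.86, 3.16 and 2.82 CPM in medullary GFP-positive and 47.4 and 44.7 CPM in medullary GFP-negative libraries, in the same order of groups as Oas1a. Of 12 tested near copies, 3 fell in cortical and 5 in medullary GFP-positive cells, against 7.59% and 11.1% of all genes tested, and none rose. Some of these copies, such as Ifi27l2a, are also among the other interferon-induced genes counted above.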

How the data were processed

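Messenger RNA of 180 to 300 sorted cells per tube was primed at the poly(A) tail, copied by template switching, amplified over 17 cycles and tagmented, per the labels' protocols. The kit marks neither strand nor molecules, so amplified copies cannot be removed and floors cover counting error only. The deposited count table holds the authors' raw counts per gene and library, and the deposited tables of 3 comparisons hold the authors' log2 fold changes and adjusted p-values, per the file headers. In those tables the statistic equals the part of the log2 fold change beyond 2-fold divided by its error (tolerance 0.001) for all 25509 genes. Build mm10, featureCounts 1.6.0, DESeq2 1.18.1, DESeq, GSNAP and bcl2fastq are named in the submitters' processing notes without their roles, and the annotation is not given in the sources used here.

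From the counts, 20893 genes passed edgeR's filterByExpr by group and were fitted in R 4.3.3 with edgeR 4.0.16 (TMM scaling, quasi-likelihood F test, all 11 libraries in 1 fit). P-values were adjusted by Benjamini-Hochberg over all genes tested, and an adjusted p under 0.05 was a call. Every adjusted p given without another source is from this test. Spike-in sequences (92, with 10 counts) were left out, as were 23 columns of normalised values. The script was tested on simulated data. The labels do not tie libraries to pools of mice, so p-values measure the spread between these libraries, part of which may be technical. Library 3 alone of each cortical group was at 2.5 months, but libraries 2 and 3 of medullary GFP-positive cells were. Libraries of a group may therefore share a pool and not be independent. In each group, replicate libraries differed by more than counting noise. Values at 1 age are differences of mean log2(CPM + 0.5), without a test. The members, lists and tests were chosen with earlier results of these data known. All 39 members are described, those called in a comparison with the value in every library, and of other genes a few of the pathway lists are named. One gene of the receptor and signalling list is not reported here, and no counts over that list are given. Alternatives were DESeq2 size factors, total counts, no filter, a filter of 1 CPM in 3 libraries, DESeq2 1.42.0, limma 3.58.1 (voom), a fit of the compared groups alone, age as a term, the replicate block and leaving out each library.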

Additional observations from a re-analysis of the deposited data

Results flagged for a closer look

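For 7 genes the difference between GFP-positive and GFP-negative cells differed between the tissues by edgeR's test of that difference. The log2 value, cortex minus medulla, was 2.34 for Dhx58, 2.33 for Trim30d, 2.08 for Ly6e, 1.91 for Irf7, 1.55 for Irf9, 1.23 for Bst2 and 1.07 for Ddx58. Dhx58 and Trim30d were called higher in GFP-positive cells of the cortex. Trim30d, Ly6e, Irf7, Irf9, Bst2 and Ddx58 were called lower in GFP-positive cells of the medulla. The edgeR adjusted p lay between 0.00776 for Ly6e and 0.0487 for Ddx58. The 4 groups have 3, 3, 3 and 2 libraries, too few for a test of single outlying libraries.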

How the results depend on the processing

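Of the 20 alternatives, 11 left out 1 library. Without 1 library, 2 to 5 of the genes were higher and 5 to 12 lower in cortical GFP-positive than in GFP-negative cells, 0 to 2 higher and 14 to 22 lower in medullary GFP-positive than in GFP-negative cells, 2 to 3 higher and 12 to 17 lower in cortical than in medullary GFP-positive cells, and 1 higher and 18 to 28 lower in cortical than in medullary GFP-negative cells. The test of the difference between tissues called 2 to 6 higher and 0 lower genes. Other counts that moved were the higher genes of the medullary gates, which were 2 under limma voom and 0 with the compared groups alone, with age as a term and with the replicate block. The genes of the difference test (7) were 4 with total counts as scale, 13 with the DESeq2 Wald test and 4 with age as a term. Among values called under at least 1 setting, that of Mx1 between cortical and medullary GFP-positive cells reversed, from -1.28 without a call in the edgeR test to 0.35 under limma voom (adjusted p = 0.915), and the cause was not tested. Limma voom and the age term gave Oas2 log2 changes of -7.84 and -6.49 between medullary gates, against -5.52 in the edgeR test. Between cortical gates, limma voom lost Oasl2 (adjusted p = 0.0755), Gbp3 (0.071) and Mx1 (0.0651), and the age term lost Gbp3 (0.0689). Between medullary gates, the fit of the compared groups alone lost Ifi27 (0.172), Oasl2 (0.106), Mx1 (0.0774), Ifih1 (0.0671) and Ddx58 (0.0635), the age term lost Ifi27 (0.104) and Ifi44 (0.0906), and total counts lost Usp18 (0.0709) and Ifih1 (0.068). In the difference test, total counts lost Ddx58 (0.0678), Dhx58 (0.0546) and Irf7 (0.0537), and the age term lost Ddx58 (0.0904), Irf7 (0.0817) and Dhx58 (0.0584). Scaling by total counts moved the median of all genes to 0.15 in the medullary gates, -0.10 between GFP-positive tissues and -0.19 in the difference test. It split the genome-wide calls into 1244 higher and 2032 lower (1492 and 1586 with TMM) for the cortical gates and 122 and 270 (179 and 158) for the difference test. Of 195 values, 71 were called under no setting, and 20 of these changed sign under some alternative.

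Same-numbered libraries deviated from their group means with correlations of -0.014 to 0.144, so the numbers were not taken to pair libraries. With the replicate block, 4 genes were higher and 10 lower between cortical gates, 0 and 22 between medullary gates, 3 and 18 between GFP-positive tissues, 1 and 25 between GFP-negative tissues, and 8 and 0 in the difference test. These are not all the same genes. Between cortical gates the block lost Trim30d (adjusted p = 0.0639), Gbp3 (0.0633) and Mx1 (0.0587) and called Rsad2, Trim30a and Parp14. It lost Ifi27 (0.0605) between medullary gates, Gbp3 (0.0875) and Ifi35 (0.0626) between GFP-negative tissues and Ddx58 (0.0944) in the difference test. Small pools, 2 medullary GFP-negative libraries and ages that differ between medullary gates limit these comparisons. At the depth reached, Oas3, Mx1, Isg15 and Zbp1 rest on few counts in some GFP-positive libraries.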
